A study of Homo sapiens with 6 samples.

Results

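The insulin-like growth factor (IGF) axis was followed across hiPSC-CMs (cardiomyocytes derived from human pluripotent stem cells) with and without alcohol and losartan. Its members were the ligands IGF1 and IGF2, the receptors IGF1R and IGF2R and the secreted binding proteins IGFBP2 to IGFBP7. They were chosen by gene family, with earlier results of these data known, and all 10 were found among the 21134 genes listed. RNA sequencing covered 6 libraries from cells of H9, a line that came from a human embryo although the samples are called hiPSC-CMs. There were 2 untreated control libraries, 2 alcohol libraries from cells exposed to 100 mM alcohol for 24 h, and 2 libraries from cells exposed for 24 h to 100 mM alcohol and 1 μM losartan, a blocker of the angiotensin II receptor AT1R. The labels and the study's methods call losartan a co-treatment, while its results text calls it a pretreatment, so the order of the agents is uncertain. Losartan without alcohol was not among the groups, and all libraries came from 1 line, so differences between lines cannot be read from these data.

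IGF1 and IGF2 are small secreted hormones related to insulin. They act mainly through IGF1R, a tyrosine kinase that signals through the IRS adaptors to PI3K and AKT and through RAS to MAPK, whereas IGF2R, also the mannose 6-phosphate receptor, takes up IGF2 and delivers it to lysosomes. IGF binding proteins hold the ligands outside the cell, which limits or prolongs their action until proteases cut them. IGF2 is an imprinted growth factor of fetal tissue, and IGF signaling is known for driving the growth of cardiomyocytes in the developing heart.

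In summed form the axis kept a similar level in the 3 groups, but its binding proteins differed in opposite directions. IGFBP6, which binds IGF2 in preference to IGF1, fell to 0.473 of control in the cells given alcohol and losartan, and it was the member called in a test across all genes. IGFBP7 was lower and IGFBP5, IGFBP4 and IGF2R were higher in all 4 libraries that received alcohol than in both controls. Such a separation, in either direction, was seen in 23.2% of all genes tested. None of these 4 genes passed the adjusted threshold of edgeR's test on all 6 libraries. IGF1, IGF2, IGF1R, IGFBP2 and IGFBP3 had ranges that overlapped between control and the alcohol libraries.

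Over both alcohol groups against control, the largest log2 fold changes downward and upward were those of IGFBP6 and IGFBP5, and the sequences before their start sites are shown for comparison. Capitals mark the GC box GGGCGG, which was searched on both strands together with the TATA box TATAAA and the core ACGTG of hypoxia response elements. The 250 bases before the start are given 5′ to 3′ on the gene's own strand, from RefSeq on GRCh38.p14.
IGFBP5, chr2:216695550-216695799, reverse strand: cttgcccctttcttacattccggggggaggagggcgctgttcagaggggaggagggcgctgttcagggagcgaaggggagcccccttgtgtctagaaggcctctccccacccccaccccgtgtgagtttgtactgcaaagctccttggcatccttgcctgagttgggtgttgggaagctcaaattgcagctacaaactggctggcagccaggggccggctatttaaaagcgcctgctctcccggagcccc
IGFBP6, chr12:53097417-53097666, forward strand: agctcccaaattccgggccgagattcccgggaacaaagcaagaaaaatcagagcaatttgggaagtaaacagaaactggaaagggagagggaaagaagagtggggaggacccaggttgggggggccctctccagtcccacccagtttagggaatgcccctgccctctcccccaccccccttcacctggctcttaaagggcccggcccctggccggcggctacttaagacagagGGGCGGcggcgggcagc
The IGFBP6 sequence held 1 GC box, and the IGFBP5 sequence held none of the 3 motifs. Each had a GC content of 61.2%, against a median of 58.0% over the 35116 promoters of the table. A GC box was found in 42.6% of those promoters, TATAAA in 10.7% and ACGTG in 18.5%, where a palindrome such as CACGTG counts on each strand. Of the 8 members found in the table, the window of IGF2R was the richest in matches, with 6 GC boxes and 6 ACGTG matches. That of IGFBP4 held 1 TATAAA and 1 GC box, and that of IGF1 had the lowest GC content at 39.6%. The members not found were IGF2 and IGFBP7. A match describes the letters and is no evidence of binding by a factor.

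The levels of the members were compared as FPKM, a count scaled by transcript length and library size, because genes of unequal length cannot be compared by counts. IGF2 (chr11:2129117-2149566, reverse strand) had the highest mean at 194 ± 29.8 FPKM (SD over 6 libraries) and ranked 275 among all genes. IGFBP7 (chr4:57030773-57110385, reverse strand) followed at 193, IGFBP5 at 160 and IGFBP2 at 156, and the ranges of these 4 genes overlapped with their neighbours in the order. IGFBP3 at 52.1 lay below all of them without overlap. IGFBP6 at 29.1 overlapped IGF2R at 18.6, and IGFBP4 at 12.7 overlapped IGF1R at 9.59, whereas the ranges of IGFBP3 and IGFBP6 and those of IGF2R and IGFBP4 were apart. IGF1 (chr12:102395874-102481839, reverse strand) was lowest at 0.778 FPKM and rank 15041. On this scale the cells held far more IGF2 than IGF1 RNA, and more RNA of IGF2, IGFBP2, IGFBP3, IGFBP5 and IGFBP7 than of either receptor in every library.

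**Figure D1:**
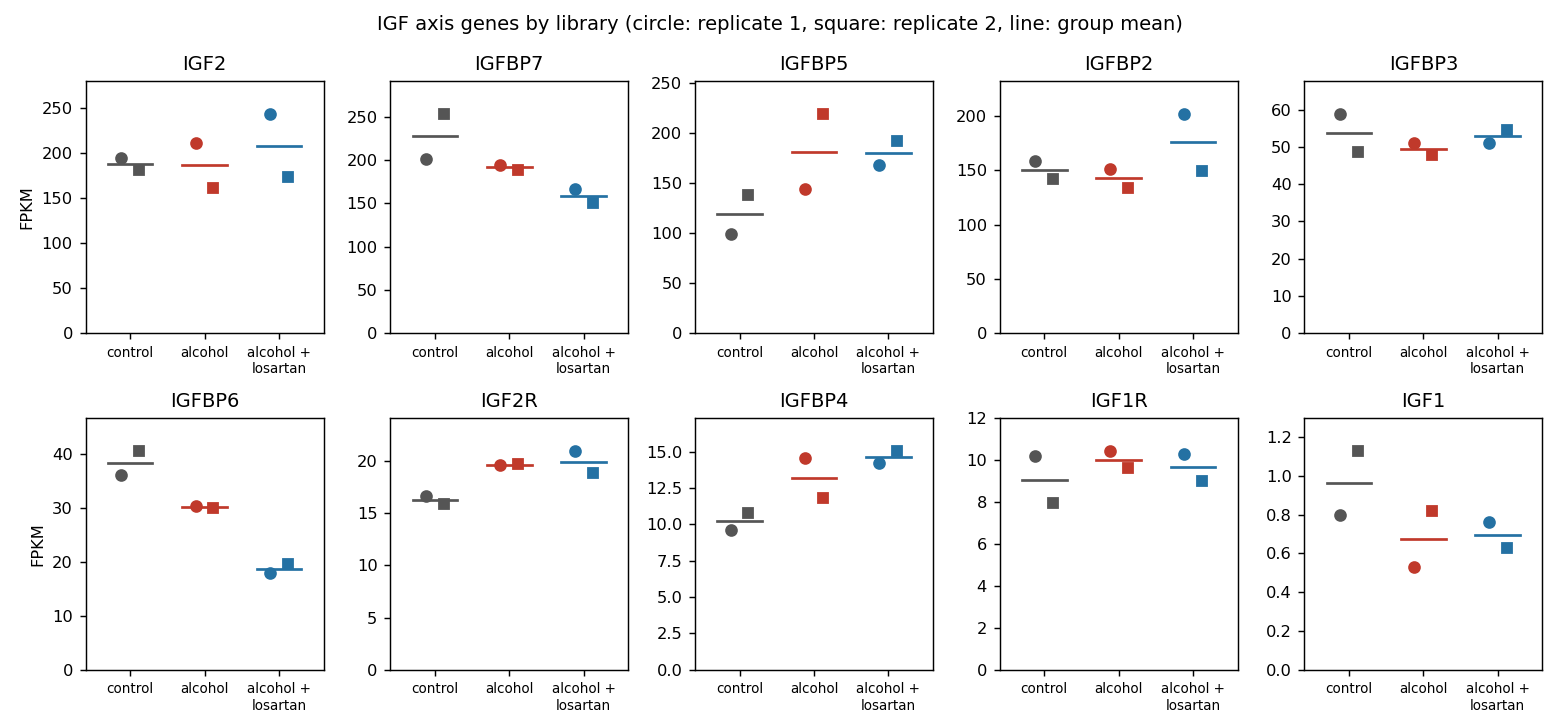
FPKM of the 10 members in each of the 6 libraries, 1 panel a gene with its own axis starting at 0, ordered by mean level from IGF2 to IGF1. Points are libraries and lines are group means (n = 2). IGFBP6 steps down from 36.13 and 40.59 in control to 17.89 and 19.50 with alcohol and losartan, and IGFBP7 follows the same order, while the IGF2 groups overlap.

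Of the ligands, IGF2 was 194 and 181 FPKM in the control libraries, 212 and 161 in the alcohol libraries and 244 and 173 in the alcohol plus losartan libraries. The alcohol libraries lay on either side of both controls, so the spread within a group exceeded the difference between groups. The log2 fold change was -0.06 ± 0.18 (SE) for alcohol against control, with an adjusted p of 0.937 by edgeR's quasi-likelihood test with Benjamini-Hochberg adjustment, and 0.15 ± 0.18 for alcohol plus losartan against alcohol (adjusted p = 0.956). IGF1 was 0.80 and 1.13 FPKM in control, 0.53 and 0.82 in alcohol and 0.76 and 0.63 in alcohol plus losartan, from 19.4 to 41.4 estimated reads a library. Its log2 fold change in alcohol was -0.58 with an SE of 0.35, the widest error of the 10 members in that comparison. Single libraries moved this value, to -0.32 without alcohol replicate 1, -0.34 without control replicate 2 and -0.90 without alcohol replicate 2, and limma on log2(FPKM + 1), a scale that shrinks low genes, gave -0.23. The IGF2 gene overlaps INS-IGF2, a read-through gene on the same strand with at most 41.2 estimated reads, and IGF2-AS on the other strand with 7 to 25, so reads could have been shared among them.

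IGF2 varied by 1.51-fold between its lowest and highest library, and the tested genes whose log2 CPM over the 6 libraries was most like it were ICMT (Pearson r = 0.988), LINC00839 (0.981) and RABL2B (0.979). These likenesses are a description over 6 libraries that include the 3 groups, picked from 14926 tested genes. H19, the imprinted noncoding RNA next to IGF2, was 1755 and 1881 FPKM in control, 1574 and 1343 in alcohol and 1871 and 1190 in alcohol plus losartan, and its log2 fold change in alcohol was -0.35 ± 0.19 (adjusted p = 0.521, edgeR), or -0.21 without alcohol replicate 2. IGF2BP1, which binds IGF2 messenger RNA, was 29.03 and 31.4 FPKM in control, 26.1 and 27.4 in alcohol and 28.98 and 25.4 in alcohol plus losartan, with a log2 fold change of -0.21 ± 0.10 over both alcohol groups (adjusted p = 0.387, edgeR). The 2 libraries of the alcohol plus losartan group differed for both IGF2 and H19, with replicate 1 the higher.

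Of the receptors, IGF2R (chr6:159969082-160111504, forward strand) was 16.6 and 15.9 FPKM in control, 19.6 and 19.7 in alcohol and 21.0 and 18.9 in alcohol plus losartan. Every library with alcohol was above both controls, by a small margin, and the 2 alcohol groups overlapped. Over both alcohol groups the log2 fold change was 0.24 ± 0.10, with an unadjusted p of 0.0324 and an adjusted p of 0.315 (edgeR). IGF1R (chr15:98648539-98964530, forward strand) was 10.2 and 7.96 FPKM in control, 10.5 and 9.61 in alcohol and 10.3 and 9.02 in alcohol plus losartan, and the 3 groups overlapped. The insulin receptor INSR, which can pair with IGF1R, had a control range that held all other libraries, at 9.66 and 7.33 in control, 9.43 and 8.66 in alcohol and 8.51 and 8.57 in alcohol plus losartan. M6PR, the smaller mannose 6-phosphate receptor, lay between 38.3 and 42.3 FPKM in the 6 libraries.

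Of the binding proteins, IGFBP6 (chr12:53097667-53102340, forward strand) had 36.1 and 40.6 FPKM in control, 30.4 and 30.0 in alcohol and 17.9 and 19.5 in alcohol plus losartan, from 175 and 196, 147 and 141, and 84 and 94 reads. The 3 groups were apart from each other, in that order. The log2 fold change was -0.38 ± 0.16 for alcohol against control (adjusted p = 0.398, edgeR) and -0.70 ± 0.17 for alcohol plus losartan against alcohol (unadjusted p = 0.00129, adjusted p = 0.567, edgeR). In the comparison of alcohol plus losartan with control it fell by 1.08 on the log2 scale, with an SE of 0.17 and an adjusted p of 0.0203 (edgeR's quasi-likelihood test). Both alcohol groups together against control gave a log2 fold change of -0.73 ± 0.14 and an adjusted p of 0.0404 by edgeR. The call for alcohol plus losartan against control was lost under limma on log2(FPKM + 1), at an adjusted p of 0.0634, and on log2(FPKM + 0.1), at 0.0541. It was also lost without control replicate 2 (edgeR adjusted p = 0.0983) or without either alcohol plus losartan replicate (0.137 and 0.267), while the log2 fold change stayed between -1.16 and -0.998 over all 14 alternatives. The call over both alcohol groups was lost under DESeq2 (adjusted p = 0.0649), under limma (0.0706 and 0.0779), without an expression filter (edgeR, 0.0829) and when any library but alcohol replicate 1 was left out (edgeR, 0.0839 to 0.263).

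IGFBP7, a binding protein with low affinity for IGFs that lies in the extracellular matrix, was 202 and 254 FPKM in control, 195 and 189 in alcohol and 166 and 150 in alcohol plus losartan. The groups were again apart in the order control, alcohol, alcohol plus losartan. Its log2 fold change was -0.28 ± 0.13 for alcohol against control, -0.29 ± 0.13 for alcohol plus losartan against alcohol and -0.57 ± 0.13 for alcohol plus losartan against control. The adjusted p by edgeR in the last of these was 0.0787. DESeq2 gave 0.0171 and edgeR without alcohol replicate 1 gave 0.0489, and without control replicate 2, the highest library, the log2 fold change was -0.41 (adjusted p = 0.476) and that of alcohol against control was -0.11. Genes on the opposite strand overlap both ends of IGFBP7. POLR2B had 1166 and 1218 reads in control and 982 to 1211 in the other libraries, and IGFBP7-AS1 had 86 and 92 in control, 79 and 71 in alcohol and 66 and 39 in alcohol plus losartan. The strand setting of the count is not given in the sources used here, so reads of the overlapping ends cannot be told apart. IGFBP6 and IGFBP7 were the 2 of 10 members with the 3 groups in 1 order without overlap, a pattern seen in 4.33% of all genes tested.

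IGFBP5 (chr2:216672105-216695549, reverse strand), a matrix-bound binding protein, was 99.03 and 138 FPKM in control, 143 and 219 in alcohol and 168 and 192 in alcohol plus losartan. Both alcohol groups lay above control and overlapped each other, although the gap between control replicate 2 and alcohol replicate 1 was small. The log2 fold change was 0.57 ± 0.19 for alcohol against control (unadjusted p = 0.00880, adjusted p = 0.263, edgeR), 0.56 ± 0.19 for alcohol plus losartan against control (adjusted p = 0.224) and -0.01 ± 0.18 for alcohol plus losartan against alcohol. Over both alcohol groups it was 0.57 ± 0.16 with an adjusted p of 0.134 by edgeR, and 0.0181 without alcohol replicate 1. The alcohol value rested on single libraries, since leaving out alcohol replicate 2 gave 0.28 and leaving out control replicate 1 gave 0.38. Leaving out alcohol replicate 1 or control replicate 2 gave 0.82, with adjusted p of 0.0332 and 0.262 by edgeR.

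IGFBP4 (chr17:40443450-40457725, forward strand), an inhibitory binding protein, was 9.61 and 10.8 FPKM in control, 14.6 and 11.8 in alcohol and 14.2 and 15.1 in alcohol plus losartan. All 4 libraries with alcohol were higher than both controls. The log2 fold change was 0.33 ± 0.18 in alcohol and 0.47 ± 0.18 in alcohol plus losartan, each against control, with adjusted p of 0.532 and 0.288 (edgeR). The alcohol value was 0.14 when alcohol replicate 1 was left out and 0.51 when replicate 2 was.

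IGFBP2 (chr2:216632828-216664436, forward strand) was 159 and 142 FPKM in control, 151 and 134 in alcohol and 202 and 150 in alcohol plus losartan. IGFBP2 and IGFBP5 are neighbours, 7.67 kb apart on opposite strands, but their values did not follow each other, since the group means of IGFBP2 were 150, 143 and 176 and those of IGFBP5 were 118, 181 and 180 in control, alcohol and alcohol plus losartan. IGFBP3 (chr7:45912245-45921272, reverse strand), the main carrier of IGFs in blood, was 58.9 and 48.6 FPKM in control, 51.1 and 47.9 in alcohol and 51.2 and 54.7 in alcohol plus losartan. The control libraries spanned nearly the whole range of IGFBP3. The log2 fold changes of both genes in the 3 pairs of groups lay between -0.16 and 0.25, with adjusted p of 0.725 or more by edgeR.

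**Figure D2:**
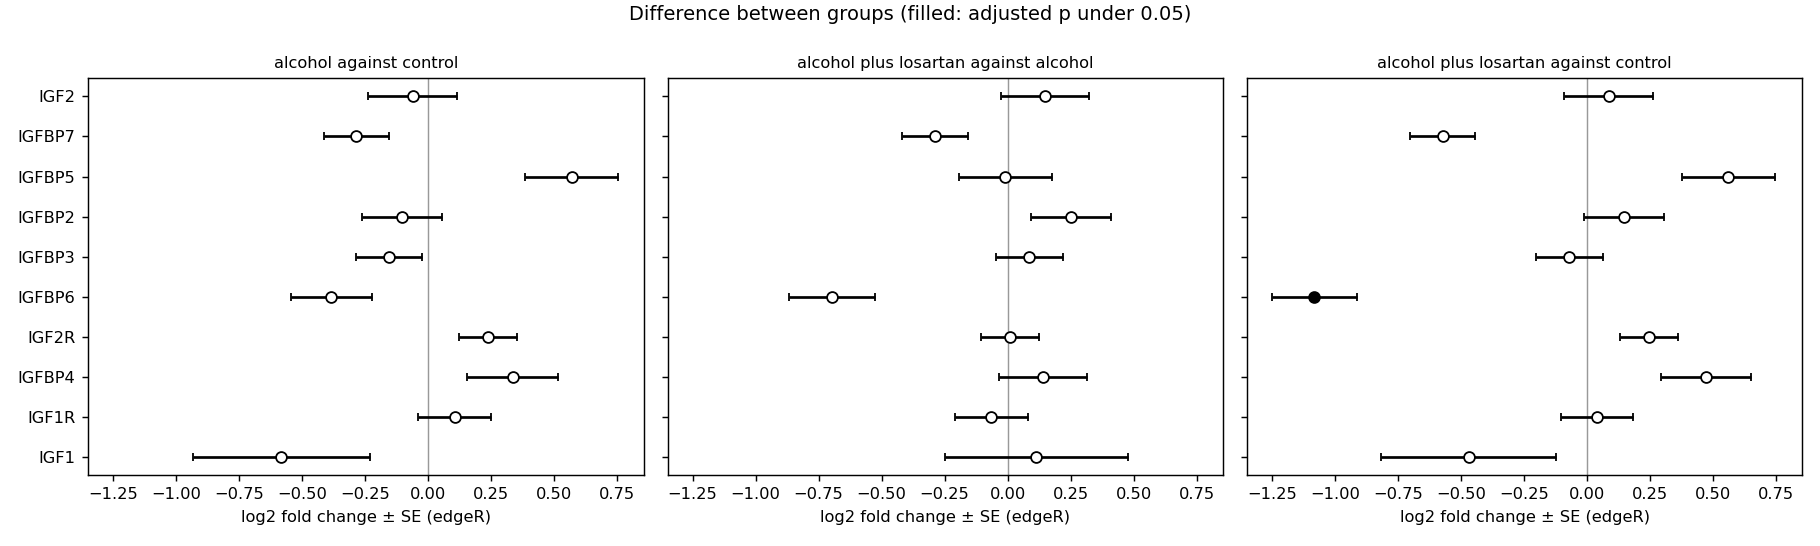
Log2 fold change (edgeR, bars are SE) of the 10 members in 3 comparisons, with filled points for an adjusted p under 0.05. The filled point is IGFBP6 in alcohol plus losartan against control, at -1.08, and IGFBP5 lies at 0.57 and 0.56 against control and near 0 between the alcohol groups.

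Counted over the axis, alcohol against control gave 0 of 10 members called, where 0.067% of all 14926 genes were called, and 3 members with an unadjusted p under 0.05 (IGFBP5, IGFBP6 and IGFBP7), where 11.0% of all genes had one. Other tools called 0 members in that comparison too, DESeq2 and both limma fits included. Alcohol plus losartan against alcohol gave 0 members called by edgeR, DESeq2 or limma, with a background of 0.0134%, and 2 members with an unadjusted p under 0.05 (IGFBP6 and IGFBP7), with a background of 5.55%. In alcohol plus losartan against control 1 member was called, where 0.362% of genes were called and 0.147% were called lower, and 4 had an unadjusted p under 0.05 against 12.6% of genes. Both alcohol groups against control gave 1 member called, where 0.556% of genes were called and 0.234% were called lower, and 5 with an unadjusted p under 0.05 against 13.5%. These comparisons share libraries, so their counts are not independent. The 5 members whose FPKM ranges were apart between control and all 4 alcohol libraries stood against 23.2% of all genes, and with any 1 library left out the members numbered 5 to 7 and the share of all genes was 28.1% to 45.8%. The median log2 fold change of the 10 members was -0.08, 0.05, 0.06 and 0.02 in these 4 comparisons, and that of all genes lay within 0.01 of 0 in each.

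Summed over IGFBP2 to IGFBP7, the binding proteins reached 564 and 633 FPKM in control, 586 and 632 in alcohol and 620 and 582 in alcohol plus losartan. The groups overlapped, and so did the ratio of this sum to IGF2, which was 2.91 and 3.49 in control, 2.76 and 3.92 in alcohol and 2.54 and 3.35 in alcohol plus losartan. The shares within the sum were not alike. IGFBP5 made up 17.5% and 21.7% of it in control, 24.5% and 34.6% in alcohol and 27.1% and 33.0% in alcohol plus losartan. IGFBP7 made up 35.7% and 40.1% in control, 33.3% and 29.9% in alcohol and 26.9% and 25.9% in alcohol plus losartan, and it had the largest share in both controls and in alcohol replicate 1. IGFBP5 led in alcohol replicate 2 and in alcohol plus losartan replicate 2, and IGFBP2 led in the other library with 32.6%. IGFBP6 went from 6.40% and 6.41% to 5.18% and 4.75% and to 2.89% and 3.35%. These shares are of RNA and carry no test, and a share of one gene lowers those of the others by construction.

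**Figure D3:**
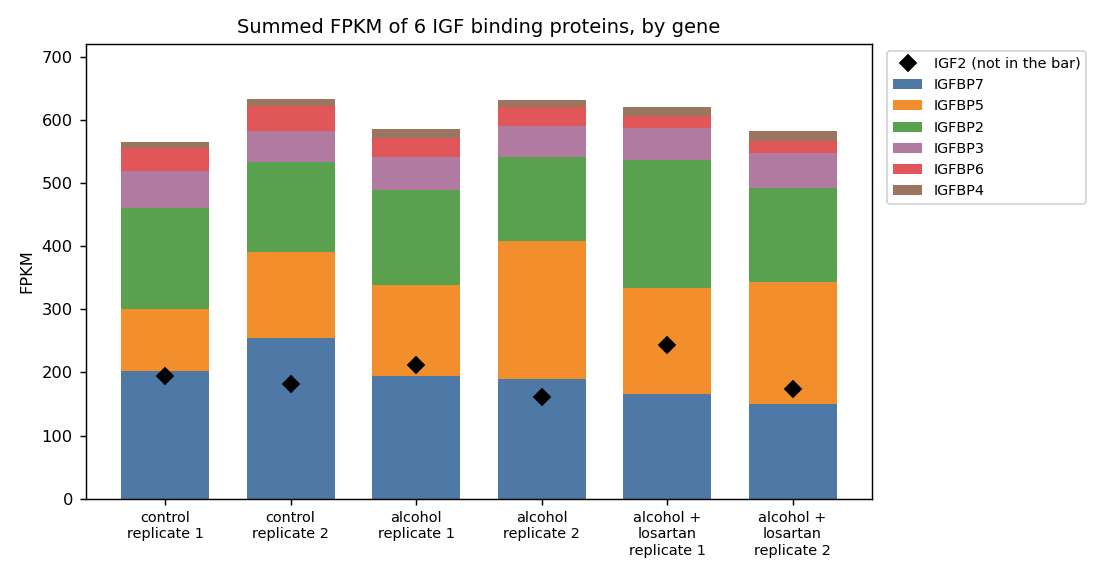
Summed FPKM of the 6 binding proteins in each library, split by gene, with the IGF2 level as a diamond that is not part of the bar. The bars have similar heights, from 564 to 633 FPKM, while the IGFBP5 part is larger and the IGFBP7 and IGFBP6 parts are smaller in the libraries with alcohol.

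Around the members, 86 other genes of the pathway were taken from 10 lists, of which 83 were listed and 78 could be tested. With all 6 libraries and the usual filter edgeR called 0 of them in each comparison, and limma called 0 as well, while DESeq2 called TXNIP in alcohol plus losartan against control and in both alcohol groups against control. Other edgeR settings called up to 3 of them in a comparison. With an unadjusted p under 0.05 there were 13 genes (9 higher, 4 lower) in alcohol against control, 8 (3 higher, 5 lower) in alcohol plus losartan against alcohol, 9 (4 higher, 5 lower) in alcohol plus losartan against control and 14 (8 higher, 6 lower) in both alcohol groups against control. As shares of the genes tested these were 16.7%, 10.3%, 11.5% and 17.9%, beside the backgrounds given above.

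Among the proteases of the binding proteins and their inhibitors, 9 genes were tested and 0 were called. STC1, an inhibitor of the pappalysin proteases that cut IGFBP4 and IGFBP5, was 5.05 and 3.29 FPKM in control, 2.32 and 0.57 in alcohol and 5.83 and 4.62 in alcohol plus losartan. The alcohol libraries were below all others, replicate 2 most of all with 11 reads. Its log2 fold change was -1.55 ± 0.43 in alcohol against control (adjusted p = 0.185, edgeR) and 1.82 ± 0.42 in alcohol plus losartan against alcohol (adjusted p = 0.471). MMP2, a matrix protease, had the opposite order, with 9.07 and 9.16 FPKM in control, 12.6 and 12.2 in alcohol and 9.23 and 7.61 in alcohol plus losartan. The log2 fold change of MMP2 was 0.40 ± 0.15 (adjusted p = 0.354) and then -0.61 ± 0.16 (adjusted p = 0.587) by edgeR. Neither gene passed the adjusted threshold with all libraries. The STC1 values rested on the alcohol libraries, at -2.92 and 3.20 without alcohol replicate 1, where edgeR called both (adjusted p = 0.00426 and 0.00806), and at -0.84 and 1.12 without alcohol replicate 2.

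Among the receptor adaptors, 10 genes were tested and 0 were called. IRS2, which links insulin and IGF receptors to PI3K, was 1.37 and 0.95 FPKM in control, 2.57 and 1.87 in alcohol and 1.64 and 1.23 in alcohol plus losartan, and the alcohol libraries were above the rest. Its log2 fold change was 0.90 ± 0.29 in alcohol against control (adjusted p = 0.256, edgeR) and -0.64 ± 0.28 in alcohol plus losartan against alcohol (adjusted p = 0.892), or -0.36 without alcohol replicate 1. GAB1, a docking protein of growth factor receptors, was 31.4 and 27.4 in control, 36.7 and 39.9 in alcohol and 36.5 and 37.3 in alcohol plus losartan, with a log2 fold change of 0.34 ± 0.12 in alcohol (adjusted p = 0.305). Of 23 genes of PI3K, AKT and mTOR 0 had an unadjusted p under 0.05 in alcohol against control, and MLST8, an mTOR complex subunit (0.33 ± 0.17), and PIK3R1, a regulatory subunit of PI3K (-0.23 ± 0.13), had the smallest p of that list over the comparisons. PIK3R1 was -0.30 ± 0.13 in alcohol plus losartan against control (unadjusted p = 0.0444) and -0.26 ± 0.11 over both alcohol groups (unadjusted p = 0.0378), with adjusted p of 0.381 and 0.332 by edgeR. Its alcohol value was -0.14 when control replicate 1 was left out, -0.37 when alcohol replicate 1 was and -0.09 when alcohol replicate 2 was, and the last of these gave 0.22 for MLST8.

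Among 13 genes of RAS and MAPK, the 2 with an unadjusted p under 0.05 in alcohol against control and the 3 in both alcohol groups against control were all lower, beside 11.0% and 13.5% of all genes with such a p in either direction. SPRY2, a feedback inhibitor of receptor tyrosine kinases, was 18.7 and 15.6 FPKM in control, 11.2 and 13.0 in alcohol and 10.2 and 10.7 in alcohol plus losartan. The 3 groups were apart, and the log2 fold change was -0.55 ± 0.17 in alcohol (adjusted p = 0.244) and -0.76 ± 0.17 in alcohol plus losartan (adjusted p = 0.0787), each against control by edgeR. DUSP6, the phosphatase that switches off ERK, was 3.77 and 2.34 in control, 2.74 and 2.03 in alcohol and 1.32 and 1.27 in alcohol plus losartan. Its log2 fold change was -0.45 ± 0.32 in alcohol against control (unadjusted p = 0.180, edgeR), so it was not among the 2 counted there. In alcohol plus losartan against control it was -1.31 ± 0.34 (edgeR adjusted p = 0.120), from 21 and 22 reads in the alcohol plus losartan libraries. Single controls moved these values. In alcohol and in alcohol plus losartan, each against control, SPRY2 was -0.38 and -0.61 without control replicate 1 and -0.67 and -0.90 without control replicate 2. DUSP6 was -0.03 and -0.90 without control replicate 1 and -0.75 and -1.62 without control replicate 2.

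Among 10 FOXO factors and genes that FOXO factors are known to regulate, 5 were higher and 1 lower with an unadjusted p under 0.05 in alcohol against control, beside 11.0% of all genes in either direction, and the list's median log2 fold change was 0.34. The list's genes called in alcohol against control numbered 0 with all libraries. FBXO32, a muscle ubiquitin ligase, was 8.41 and 9.01 FPKM in control and 10.35 and 16.24 in alcohol. It was called only in the fit without alcohol replicate 1, at a log2 fold change of 0.83 ± 0.17, and was 0.24 ± 0.18 without alcohol replicate 2. PIK3IP1, an inhibitor of PI3K, was 11.7 and 10.4 FPKM in control, 15.2 and 19.8 in alcohol and 15.9 and 17.8 in alcohol plus losartan, with a log2 fold change of 0.61 ± 0.17 in alcohol (adjusted p = 0.182, edgeR). TXNIP, which restrains glucose uptake and binds thioredoxin, was 179 and 188 in control, 218 and 286 in alcohol and 286 and 349 in alcohol plus losartan. Both genes were higher in all 4 libraries with alcohol than in control, and TXNIP had a log2 fold change of 0.74 ± 0.15 in alcohol plus losartan against control (adjusted p = 0.0506, edgeR). That value just missed the threshold, and TXNIP was called by edgeR with at least 10 counts in every library (adjusted p = 0.0378) and with only the libraries compared (0.0158), and by DESeq2 (0.000198). Leaving out either alcohol replicate gave a call at a log2 fold change of 0.74, and leaving out a control or an alcohol plus losartan replicate gave none. The log2 fold change was then 0.72 and 0.76 without control replicates 1 and 2. It was 0.89 and 0.57 without alcohol plus losartan replicates 1 and 2. Over both alcohol groups PIK3IP1 was called only in the fit without alcohol replicate 1, at a log2 fold change of 0.66. This value was 0.50 without alcohol replicate 2, and 0.70 and 0.48 without control replicates 1 and 2. Of the CCN family, matrix proteins with a domain like that of the binding proteins, 3 genes were tested. CYR61 was 25.6 and 22.5 in control, 32.5 and 24.4 in alcohol and 14.9 and 17.9 in alcohol plus losartan, where the losartan libraries lay below the rest, with a log2 fold change of -0.81 ± 0.18 against alcohol (adjusted p = 0.461). WISP1 had a log2 fold change of 0.89 ± 0.44 in alcohol against control (adjusted p = 0.493), from 10 to 27 reads a library, and was 1.34 without control replicate 1 and 0.56 without control replicate 2.

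**Figure D4:**
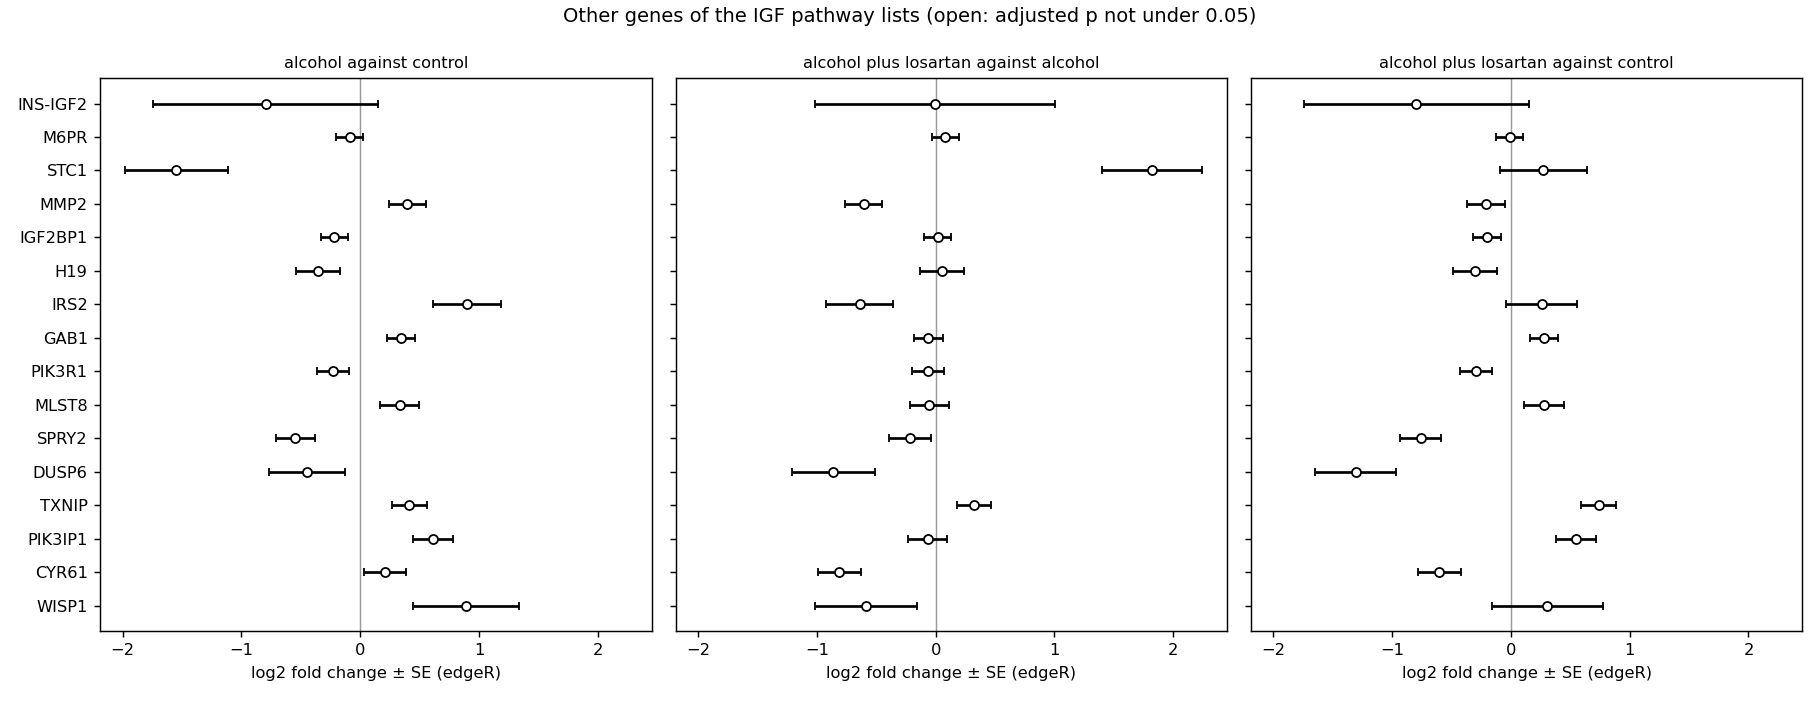
Log2 fold change (edgeR, bars are SE) of 16 genes of the pathway lists that are not members, the 2 with the smallest p of each list with the members left out. All points are open because no adjusted p was under 0.05. Many of the genes, STC1, MMP2 and IRS2 among them, lie on opposite sides of 0 in alcohol against control and in alcohol plus losartan against alcohol. These 2 comparisons share the alcohol libraries with opposite sign, which favours such a position by construction.

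In bulk RNA, fewer cells of a type and less RNA per cell cannot be told apart. Cardiomyocyte markers were high in all libraries (12 of 12 listed, 26406 to 27036 summed FPKM in control, 19840 to 26348 in alcohol and 22668 to 24755 in alcohol plus losartan). Smooth muscle markers summed to 1691 to 1928 FPKM in control, 724 to 1452 in alcohol and 993 to 1037 in alcohol plus losartan. In this sum the alcohol groups overlapped each other, and every library with alcohol was below both controls. Over both alcohol groups 0 of 5 genes were higher and 1 of 5 was called. ACTA2 was 507 and 580 FPKM in control and 203 to 337 in the libraries with alcohol. TAGLN was 998 and 826, then 340 to 689, and MYH11 was 4.77 and 4.34, then 1.71 to 3.89. CNN1 and PDGFRB overlapped control, and CNN1 was 422 FPKM in alcohol replicate 1, against 417 and 279 in control. Fibroblast markers had 443 to 484, 502 to 531 and 481 to 536, and 0 of 9 tested were called. Epicardial markers, 4 genes of which 1 could be tested, had 8.11 to 10.7, 10.8 to 11.4 and 13.6 to 16.5, and endothelial markers, 5 genes, had 5.88 to 6.86, 7.43 to 8.53 and 8.90 to 10.5. The sum of hypoxia response genes was lowest in the alcohol libraries, at 536 in replicate 2 and 1126 in replicate 1. It was 1435 to 1739 in control and 1282 to 1451 in alcohol plus losartan. LDHA had the largest part of it, with 847 and 718 FPKM in control and 512 and 199 in alcohol. PGK1 (490 and 408, then 308 and 157), BNIP3 (211 and 146, then 130 and 44.9) and ADM (36.4 and 39.1, then 29.7 and 35.0) were also below control in alcohol. SLC2A1, EGLN3 and NDRG1 were below control in alcohol replicate 2 alone. VEGFA was 80.0 and 69.2 in control and 79.8 and 69.65 in alcohol, and ANKRD37 was 3.40 and 4.48, then 7.65 and 4.16. Over both alcohol groups 3 of 9 tested genes were higher. Alcohol replicate 2 was also the lowest library for STC1 and for the cardiomyocyte sum and the highest for IGFBP5. MYL7 had the largest part of the cardiomyocyte sum, with 14512 and 16180 FPKM in control and 9321 in alcohol replicate 2. Like MYL7, the markers MYL2 (821), ACTN2 (323), TNNI3 (433) and TTN (148) were lowest in that library. MYH6 (737), TNNI1 (353) and NKX2-5 (151) were highest there, and TNNT2, MYH7, RYR2 and PLN were neither. Markers of endoderm and liver, which secretes IGFs and their binding proteins, had 44.5 to 46.1, 56.8 to 61.5 and 56.5 to 60.6, and pluripotency markers 12.01 to 12.03, 13.3 to 14.4 and 11.4 to 18.9. No gene of these lists was at 0 in all libraries, and over both alcohol groups edgeR called 0 genes of the lists other than smooth muscle, with an unadjusted p under 0.05 for 2 of 12 cardiomyocyte, 2 of 9 fibroblast, 1 of 1 epicardial, 1 of 4 endothelial, 1 of 6 endoderm, 0 of 4 pluripotency and 3 of 9 hypoxia response genes, beside 3 of 5 smooth muscle genes and 13.5% of all genes. The part of these cells or genes in the results above was not tested.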

How the data were processed

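RNA was sequenced from 6 libraries, and the treatment given in the labels set the groups, with 2 replicates each. Nothing says whether replicates were separate cultures, so p-values measure the spread between these libraries, which may be technical. The authors deposited expected counts per gene, estimates that need not be whole numbers (33.9% of those above 0 were not), and FPKM, the count per transcript length and library size. Per the submitters' processing notes HISAT2 2.0.4, Bowtie2 2.2.5 and RSEM 1.2.12 were used with hg38, in roles that are not given in the sources used here. The depth was 4898287 to 5051448 expected counts a library. Coordinates and promoters were taken from RefSeq on GRCh38.p14 and strands from GENCODE, the same build as hg38.

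Expected counts were rounded and tested with edgeR 4.0.16 (R 4.3.3) by its two-sided quasi-likelihood F test, with TMM normalization, the filterByExpr filter, 1 fit of the 6 libraries, and a threshold of 0.05 after Benjamini-Hochberg adjustment over 14926 genes. SE is the log2 fold change over the square root of F. All 10 members passed the filter. Alternatives were DESeq2 1.42.0, DESeq2-type size factors in edgeR, limma 3.58.1 on log2 FPKM with 1 or 0.1 added, no filter, at least 10 counts in every library, only the libraries compared, the replicate number as a block, and each library left out. Leaving out libraries for the count of ranges apart was chosen after seeing the data. The members and gene lists were chosen with earlier results of these data known. All members are named, with the 2 genes of smallest p of each pathway list and the 3 genes most like IGF2. INSR and FBXO32 were named after their values were seen. The edgeR step was tested on simulated data.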

Additional observations from a re-analysis of the deposited data

How the results depend on the processing

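Of the 40 log2 fold changes of members (10 genes in 4 comparisons), 550 values were computed under 14 alternative settings. Of these 491 kept their direction and their side of the threshold, 14 no longer passed it, 6 newly passed it and 39 changed sign. Every setting left the direction of IGFBP6 and IGFBP7 in the 4 comparisons, and that of IGFBP4, IGFBP5 and IGF2R against control, as reported. No result that changed sign was called under any setting. For alcohol plus losartan against alcohol, IGF2R was -0.0018 with no expression filter and -0.0017 in a fit of only the libraries compared, and IGFBP5 was 0.019 in each of the limma fits on log2(FPKM + 1) and log2(FPKM + 0.1). With 1 library left out in turn, alcohol against control ranged from -0.31 to 0.16 for IGF2, from -0.062 to 0.32 for IGF1R, from -0.23 to 0.018 for IGFBP2 and from -0.29 to 0.019 for IGFBP3. Alcohol plus losartan against alcohol ranged from -0.15 to 0.43 for IGF1, from -0.10 to 0.39 for IGF2, from -0.16 to 0.028 for IGF1R, from -0.054 to 0.070 for IGF2R, from -0.011 to 0.47 for IGFBP2, from -0.040 to 0.33 for IGFBP4 and from -0.26 to 0.28 for IGFBP5. Alcohol plus losartan against control ranged from -0.16 to 0.29 for IGF2, from -0.14 to 0.25 for IGF1R, from -0.11 to 0.37 for IGFBP2 and from -0.21 to 0.092 for IGFBP3. Both alcohol groups against control ranged from -0.11 to 0.12 for IGF2, from -0.10 to 0.29 for IGF1R, from -0.11 to 0.13 for IGFBP2 and from -0.25 to 0.056 for IGFBP3.

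The number of members called was 0 in alcohol against control, 0 in alcohol plus losartan against alcohol, 1 in alcohol plus losartan against control and 1 in both alcohol groups against control. In alcohol plus losartan against control it was 2 under DESeq2 (IGFBP6 and IGFBP7) and 0 under both limma fits, and in both alcohol groups against control it was 0 under DESeq2, both limma fits and no filter. With 1 library left out it was 0 to 1, 0, 0 to 2 and 0 to 2 in the 4 comparisons, and the extra calls were those without alcohol replicate 1. Over all genes, edgeR called 10, 2, 54 and 83 in the 4 comparisons, DESeq2 called 74, 5, 116 and 151, limma on log2(FPKM + 1) called 0, 1, 2 and 0, and limma on log2(FPKM + 0.1) called 2, 2, 3 and 5. With no filter edgeR called 2, 1, 15 and 27, with at least 10 counts in every library 26, 0, 78 and 144, and with only the libraries compared 3, 4 and 158. With 1 library left out the counts were 1 to 220, 1 to 24, 2 to 184 and 6 to 407. Of the pathway genes that are not members, edgeR called 0 in the 4 comparisons. It called TXNIP in alcohol plus losartan against control with at least 10 counts in every library, with only the libraries compared and without alcohol replicate 1 or 2, and over both alcohol groups with at least 10 counts and without alcohol replicate 1. Without alcohol replicate 1 it also called STC1 in every comparison but alcohol plus losartan against control, FBXO32 in alcohol against control and PIK3IP1 over both alcohol groups. The cause of these changes was not tested. A fit of only the libraries compared was not run for both alcohol groups against control because it holds all libraries.

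The replicate numbers did not pair the libraries, since the correlations of deviations of same-numbered libraries from their group means were 0.11 for control and alcohol, -0.016 for control and alcohol plus losartan and 0.041 for both alcohol groups. With the number as a replicate block, edgeR called 48, 5, 136 and 256 genes and 0, 0, 2 and 2 members. The added member was IGFBP5, with an adjusted p of 0.0438 in alcohol plus losartan against control and 0.0236 in both alcohol groups against control. The block also called TXNIP in these comparisons (adjusted p = 0.0126 and 0.0238) and SPRY2 over both alcohol groups (0.0424). It turned IGFBP5 to 0.012 in alcohol plus losartan against alcohol and IGF2 to -0.0074 in both alcohol groups against control. With 2 libraries a group the depth limits IGF1 most among the members, at 19.4 to 41.4 reads.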
